A study of Mus musculus with 3 samples.

Results

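The genes described here are 9 cofactors of Hox proteins, the Meis, Pbx, Pknox and Tgif genes Meis1, Meis2, Meis3, Pbx2, Pbx3, Pbx4, Pknox1, Pknox2 and Tgif1. They were chosen by symbol, as members of a protein family, from a table of 28074 named symbols, and all 9 had 1 row each. The list is not every gene of its family. The levels come from RNA sequencing of acute myeloid leukemia in 3 mice that form 1 group. Each mouse carried miR-196b-/-, Dnmt3afl/fl and Flt3ITD/ITD alleles with Mx1Cre, so every leukemia lacked the microRNA miR-196b, had floxed Dnmt3a (a DNA methyltransferase gene) and had the internal tandem duplication of the receptor gene Flt3 on both chromosomes. The titles give Dnmt3a+/- where the genotype field gives Dnmt3afl/fl. Mx1Cre is a recombinase under an interferon-inducible promoter, active in blood cells and in other tissues. Spleen cells were taken from moribund animals and enriched with beads for the receptor c-Kit, and the ages of the mice were not given. Leukemias with intact miR-196b were not analysed here, so no difference between genotypes is reported.

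Hox proteins bind DNA weakly alone. They gain specificity by binding together with homeodomain proteins of the TALE class, which is named for an extended loop of amino acids in the homeodomain. The PBX proteins contact Hox proteins directly, while the MEIS proteins and their relatives the PREP proteins (encoded by Pknox1 and Pknox2) bind PBX and help to hold it in the nucleus. In blood, Meis1 is known as a gene of stem cells and megakaryocytes, and together with Hoxa9 it transforms myeloid progenitors. Pbx3 is known as a further partner of Hoxa9 in leukemia. Tgif1 is a TALE protein of another kind, a repressor that also binds Smad proteins.

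The microRNA that these mice lacked acts through its seed, bases 2 to 8, which pairs with sites in the 3′ untranslated region (3′ UTR) of a messenger RNA. The mature sequence is shown with that of miR-196a-5p, which has the same seed, comes from other genes (Mir196a-1 and Mir196a-2) and was not named as deleted. The seed is in capitals, and the sequences are from RefSeq (GRCm38.p6).
mmu-miR-196b-5p: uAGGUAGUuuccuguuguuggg
mmu-miR-196a-5p: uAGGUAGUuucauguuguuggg

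The 7 bases that pair with the seed, ACTACCT, were searched in the longest annotated 3′ UTR of each cofactor gene (GENCODE M21, GRCm38), in the sense of the RNA only. Of the 9 genes, 1 held them, Pbx3. Over all 20999 genes with such a UTR, 6.10% held the 7 bases, and among UTRs within a factor of 2 of the length of that of Pbx3 (1560 nt) the share was 7.03%. The shorter match of 6 bases, CTACCT, stood alone in Meis3, Pbx2 and Pknox2. With Pbx3, whose 7 bases include these 6, it was in 4 of the 9 genes, against 26.3% of all genes. Among UTRs within a factor of 2 in length, the share with the 6 bases was 13.3% for Meis3 and 31.7% for Pbx2. It was 36.2% for Pknox2 and 32.7% for Pbx3. The 4 sites are shown 5′ to 3′ with the matching bases in capitals and no more than 25 bases each.
Pbx3, chr2:34172004-34172010, minus strand: ttagagcgctcacttACTACCTctg
Pbx2, chr17:34596436-34596441, plus strand: tgtctgactcggatatCTACCTcgg
Meis3, chr7:16186163-16186168, plus strand: ccaccccattcaacgcCTACCTccc
Pknox2, chr9:36891463-36891468, minus strand: tgagccttctcctcctCTACCTggt

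The Meis1 3′ UTR, the longest of the 9 at 5687 nt, held neither match, while 17.9% of 3′ UTRs within a factor of 2 of its length held the 7 bases and 62.0% held the 6 bases. Neither did those of Meis2 (1486 nt), Pbx4 (205 nt), Pknox1 (2729 nt) and Tgif1 (1018 nt). A match is a description of the letters and does not show that the microRNA binds there, and the absence of one says only that these letters are not in this UTR. With 1 genotype at hand, none of the levels below bears on whether a site is used.

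Of the 9 genes, 6 reached 1 TPM (a level per transcript length, scaled to the same total in each library) in all 3 mice, the threshold used here for detection: Tgif1, Meis1, Pbx2, Pbx4, Pknox1 and Pbx3, in falling order of their mean. Meis2, Meis3 and Pknox2 did not reach it in any mouse. Values are as deposited, and the numbers 1, 2 and 3 only name the mice. For this and the later counts of detected genes, the table as a whole gives the background. Of its 28074 symbols, 15107, 15108 and 14976 reached 1 TPM in mice 1, 2 and 3, each mouse taken alone. Among detected genes, neighbours in the order of means did not always differ beyond their range. The ranges of Meis1 and Pbx2 overlapped, as did those of Pbx4 and Pknox1, although Pbx4 was above Pknox1 in each of the 3 mice. Tgif1 above Meis1, Pbx2 above Pbx4 and Pknox1 above Pbx3 were separated in every mouse with no overlap.

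**Figure D1:**
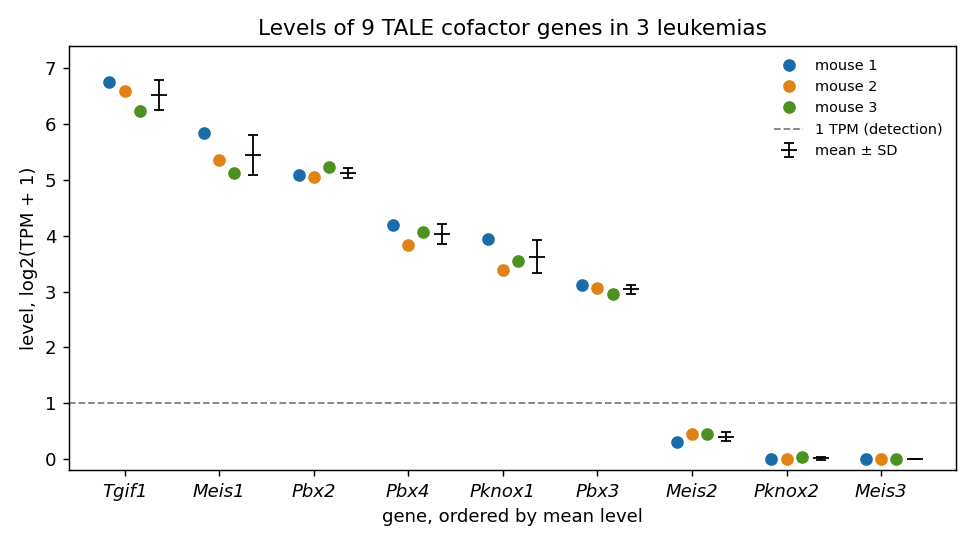
Level of each of the 9 genes on the log2(TPM + 1) scale (vertical axis), ordered by mean level, with 1 point per mouse and the mean ± SD of the 3 mice beside them. The dashed line marks 1 TPM. Tgif1 stands above all the others, and Meis2, Pknox2 and Meis3 lie below the line.

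Meis1, the MEIS gene most studied in leukemia, lies on chromosome 11 from 18879817 to 19018985 on the minus strand (GRCm38, as are the positions that follow). It had 56.3, 40.1 and 34.0 TPM in mice 1, 2 and 3, a mean of 43.5 ± 11.5 TPM (SD, n = 3), and 5.44 ± 0.36 on the log2(TPM + 1) scale. Mouse 1 was the highest and mouse 3 the lowest, with a ratio of 1.65. The mean was above that of 74.1% of the 15181 genes with a mean of at least 1 TPM, which are the expressed genes in what follows. Its SD on the log2 scale was above that of 88.4% of the 4963 other genes within a factor of 2 of its level, so among the detected cofactors Meis1 had the widest spread both in SD and in this percentile. The order of the SDs turned over without mouse 1, where Meis1 had 0.163 and Tgif1 0.256, and without mouse 3, where Meis1 had 0.339 and Pknox1 0.399. In the annotation, exons of Meis1 overlap those of Gm16140 on the opposite strand, which had 6.41, 4.08 and 4.36 TPM, and of a second gene on the same strand that had no row. Reads may be shared with the gene on the same strand, and with Gm16140 where the counting did not use strand.

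The other MEIS genes were at the bottom of the scale. Meis2, on chromosome 2 (115863064 to 116065839), had 0.2373, 0.3595 and 0.3606 TPM. Meis3, on chromosome 7 (16175090 to 16186504), was listed at 0 in all 3 mice. Meis1 therefore made up nearly all of the MEIS level: the 3 genes summed to 56.6, 40.5 and 34.4 TPM. How far values below 1 TPM rest on counting error cannot be given, because TPM keeps no sequencing depth.

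Of the PREP genes, Pknox1 was detected and Pknox2 was not. Pknox1, on chromosome 17 (31564734 to 31607693), had 14.4, 9.43 and 10.8 TPM, a mean of 11.5 ± 2.58 TPM (SD, n = 3). Mouse 1 was above the other two, which lay close together, and without mouse 1 the SD fell from 0.289 to 0.122 log2 units. Without mouse 3 the SD was 0.399. Pknox2, on chromosome 9 (36890982 to 37147407), was listed at 0 in mice 1 and 2 and had 0.0262 TPM in mouse 3. Exons of Pknox1 overlap those of AC166172.4 on the opposite strand, which had no row. The level of Meis1 was 3.91, 4.25 and 3.16 times that of Pknox1.

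All 3 PBX genes of the list were detected, and Pbx2 was the most abundant in each mouse. Pbx2, on chromosome 17 (34591266 to 34597400), had 33.1, 32.0 and 36.5 TPM, a mean of 33.9 ± 2.33 TPM (SD, n = 3). Its SD of 0.0950 log2 units was above that of 18.3% of the 5291 genes of like level, so it was among the steadier genes between mice. That SD was 0.153 after the columns were scaled to a common upper quartile, 0.0330 without mouse 3 and 0.129 without mouse 1. Exons of Pbx2 overlap those of Gpsm3 on the same strand, which had 103, 136 and 107 TPM, so reads there may be shared.

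Pbx4, best known from the testis, was the second PBX gene in all 3 mice. It lies on chromosome 8 (69832491 to 69872292) and had 17.4, 13.3 and 15.7 TPM, a mean of 15.5 ± 2.06 TPM (SD, n = 3). Mouse 2 was the lowest. Its SD of 0.183 log2 units was above that of 44.0% of genes of like level. That SD was 0.0986 without mouse 2 and 0.257 without mouse 3.

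Pbx3, which holds the 7-base seed match shown above, was the lowest of the 6 detected genes in every mouse. It lies on chromosome 2 (34171457 to 34373142) and had 7.66, 7.33 and 6.75 TPM, a mean of 7.25 ± 0.461 TPM (SD, n = 3), above 31.4% of expressed genes. The 3 mice were close together: its SD of 0.0813 log2 units was above that of 8.12% of the 3890 genes of like level. That SD was 0.0286 after upper-quartile scaling, 0.0387 without mouse 3 and 0.113 without mouse 2. The level of Pbx2 was 4.33, 4.37 and 5.41 times that of Pbx3, and that of Pbx4 was 2.27, 1.81 and 2.33 times.

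Tgif1, the repressor of the list, was the most abundant in all 3 mice. It lies on chromosome 17 (70844205 to 70853546) and had 106, 95.6 and 74.2 TPM, a mean of 92.1 ± 16.4 TPM (SD, n = 3), above 89.2% of expressed genes. Mouse 3 was below the others, and without it the SD of the log2 level was 0.108 in place of 0.264. Without mouse 2 that SD was 0.364. Tgif1 stood at 1.89, 2.38 and 2.18 times the level of Meis1.

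**Figure D2:**
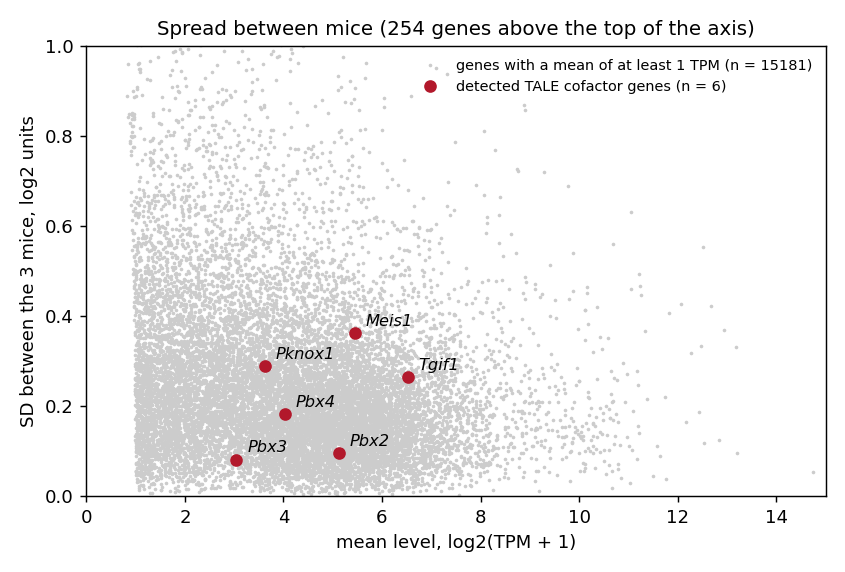
SD of the log2(TPM + 1) level between the 3 mice (vertical axis) against the mean level (horizontal axis) for 15181 genes with a mean of at least 1 TPM, in grey, and the 6 detected cofactors, in red. Meis1 lies in the upper part of the cloud at its level. Pbx2 and Pbx3 lie in its lower part, above 18.3% and 8.12% of genes of like level, and 254 genes lie above the top of the axis.

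Together the 9 genes summed to 236, 198 and 178 TPM, a mean of 204 ± 29.0 TPM (SD, n = 3). Tgif1 held 45.0 ± 3.32% of this sum, the PBX genes 28.1 ± 4.39%, the MEIS genes 21.2 ± 2.47% and the PREP genes 5.64 ± 0.767% (SD, n = 3 throughout). Meis1 alone held 23.9%, 20.2% and 19.1% in mice 1, 2 and 3. The PBX share was lowest in mouse 1 and highest in mouse 3, at 24.7%, 26.6% and 33.1%. These shares add up to a fixed total, so one cannot rise without another falling, and they concern only the genes of this list.

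**Figure D3:**
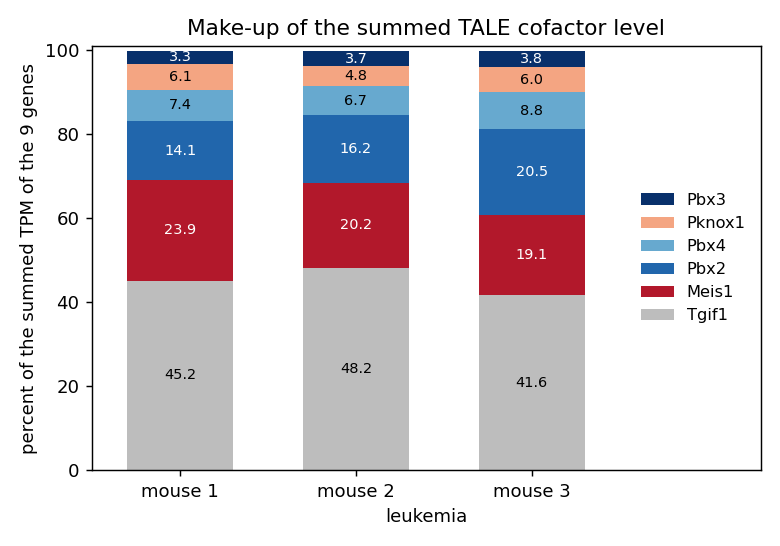
Share of the summed TPM of the 9 genes held by each detected gene (vertical axis, percent) in each mouse. Meis1 takes 23.9%, 20.2% and 19.1% in mice 1, 2 and 3 and Pbx2 takes 14.1%, 16.2% and 20.5%; Meis2, Meis3 and Pknox2 are too low to draw.

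Within a mouse, Meis1 was near Pbx2 and well above Pbx3. Meis1 was 0.968, 0.761 and 0.577 times the sum of Pbx2, Pbx3 and Pbx4. Against Pbx2 alone it was 1.70, 1.25 and 0.932 times as high, so the order of these genes turned over in mouse 3. Against Pbx3 it was 7.35, 5.47 and 5.04 times as high, or 2.40 ± 0.29 log2 units higher on the log2(TPM + 1) scale (SD, n = 3). The distance from Meis1 to Pbx3 was thus much larger than its spread between mice, while the distance from Meis1 to Pbx2 was not.

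Of the 6 detected genes, 5 were highest in mouse 1 and Pbx2 was highest in mouse 3. For comparison, mouse 1 held the top value for 48.6% of expressed genes and the bottom value for 24.4%. Over expressed genes it lay above mouse 2 by a median of 0.08 log2 units and above mouse 3 by 0.13. The column totals were nearly equal, at 929731, 927169 and 928490 in mice 1, 2 and 3. The cause of this shift in the median was not tested. After upper-quartile scaling 3 of the 6 (Meis1, Pknox1 and Tgif1) were highest in mouse 1, against 34.6% of expressed genes, with Pbx3 highest in mouse 2, and Pbx2 and Pbx4 in mouse 3. The level of Meis1 in mouse 1 was then 1.31 times that in mouse 2 and 1.49 times that in mouse 3.

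Few cofactors differed by as much as 1.5-fold between any mice. Between mice 1 and 2 it was 1 of 6, Pknox1 at 1.53-fold, against 21.7% of expressed genes. Between mice 1 and 3 it was 1 of 6, Meis1 at 1.65-fold, against 21.8%. Between mice 2 and 3 it was 0 of 6, against 16.6%. After upper-quartile scaling none of the 6 reached 1.5-fold in any of the pairs. With 6 genes these shares are close to those of all expressed genes, and no test was made.

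The labelled cell type was set beside marker genes. All 9 markers of immature and myeloid cells that had a row were detected in all 3 mice, with Mpo at 1081, 864 and 1632 TPM and Kit at 139, 149 and 133 TPM. Late neutrophil markers differed more between mice than any other marker list, with sums over 8 genes of 2469, 6456 and 21481 TPM, and all 8 were detected. Sums were 485 to 929 TPM for 6 dendritic cell markers, 92.6 to 120 TPM for 7 megakaryocyte markers, 32.8 to 83.1 TPM for 6 erythroid markers, 12.8 to 16.4 TPM for 5 B cell markers, 13.1 to 18.9 TPM for 5 T cell markers and 8.28 to 18.4 TPM for 7 endothelial and stromal markers. All dendritic cell and megakaryocyte markers were detected in all 3 mice. So were 5 of the erythroid, 3 of the T cell, 1 of the B cell and 1 of the endothelial and stromal markers. The B cell marker was Cd79b, with 13.1, 8.94 and 10.1 TPM. The endothelial and stromal marker was Pdgfrb, with 17.3, 6.91 and 6.07 TPM. Flt3 counts in both the myeloid and the dendritic cell list. None of the markers in these lists was listed at 0 in all 3 mice.

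Meis1 and Tgif1 followed the order mouse 1, mouse 2, mouse 3 from high to low, as did Pbx3 and 26.0% of expressed genes. The summed late neutrophil markers followed the reverse order, in which 9.93% of expressed genes stood. In bulk RNA, fewer cells of a type and less RNA per cell cannot be told apart, and the part of the neutrophil markers in the order of the cofactors was not tested. Of the 7 megakaryocyte markers, 0 followed the order of Meis1 and 2 the reverse order. The highest were Vwf with 38.0, 44.1 and 27.9 TPM, Itga2b with 49.0, 15.5 and 18.2 TPM and Pf4 with 6.73, 20.4 and 51.0 TPM. Of the 7, 3 were highest in mouse 1, 1 in mouse 2 and 3 in mouse 3, against 48.6%, 31.1% and 20.3% of expressed genes. The part of these markers was not tested either. Kit did not share the pattern of Meis1, whose level was 0.404, 0.269 and 0.256 times that of Kit.

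**Figure D4:**
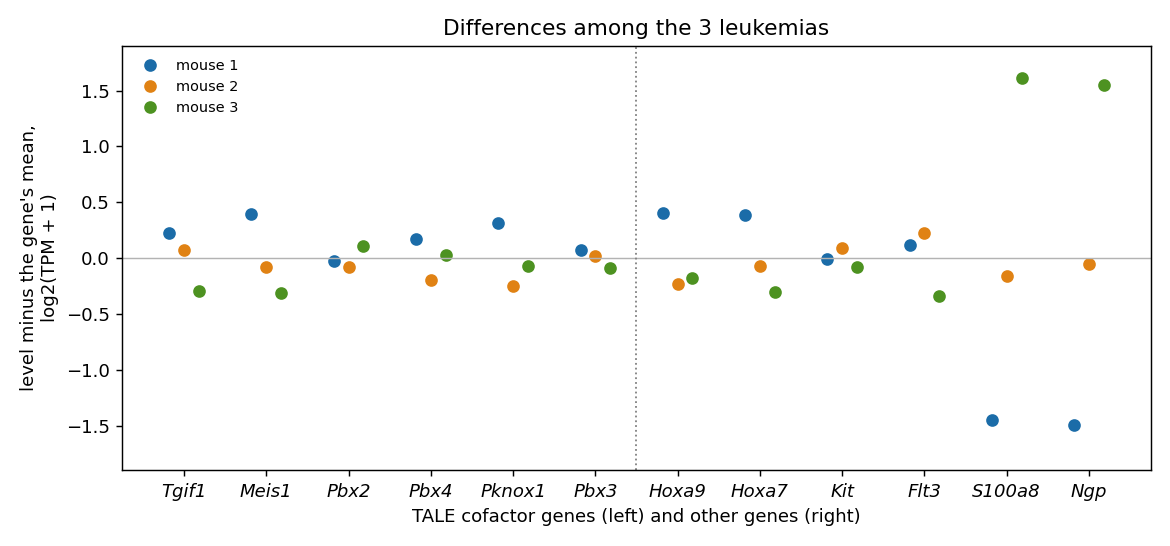
Level of each gene in each mouse minus the gene's own mean over the 3 mice, in log2(TPM + 1) units (vertical axis), for the 6 detected cofactors left of the dotted line and for Hoxa9, Hoxa7, Kit, Flt3, S100a8 and Ngp right of it. The cofactors, Hoxa9, Hoxa7, Kit and Flt3 stay closer to their means than the neutrophil genes. Among these, S100a8 ranged from 1034 (mouse 1) to 8646 TPM (mouse 3) and Ngp from 438 to 3639 TPM. The spread of Meis1 was still above that of 88.4% of genes of like level.

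Among the Hox genes that these proteins partner, 10 of the 38 with a row were detected in all 3 mice, and the 38 summed to 67.1 to 86.9 TPM. Hoxa9 was the highest, at 34.2, 21.6 and 22.5 TPM, and Hoxa7 followed at 24.5, 17.6 and 14.8 TPM. Meis1 was 1.65, 1.86 and 1.51 times as high as Hoxa9, and Pbx3 was 0.224, 0.339 and 0.300 times as high. The ratio of Meis1 to Hoxa7, which was picked after its values were seen, was 2.30, 2.28 and 2.30. It was nearly constant over the mice, with an SD of 0.00930.

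Patterns like that of Meis1 were common. The likeness was measured as the largest difference, over the 3 mice, between the centred log2 levels of 2 genes. Among 4963 genes within a factor of 2 of the level of Meis1, 142 were within 0.1 log2 units of it in every mouse. The nearest were Smarcd1, a subunit of chromatin remodelling complexes (36.7, 26.2 and 21.9 TPM, largest difference 0.00930), 9430008C03Rik (0.0137), Nat10, an RNA acetyltransferase (0.0183), Pnpla2, a triglyceride lipase (0.0216), and Setd1a, a histone methyltransferase (0.0220). The cofactor nearest to Meis1 was Tgif1, at 0.174, and the farthest was Pbx2, at 0.426. With 3 mice such likeness describes these samples only.

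Of 10 other TALE homeobox genes, the TGIF relatives, Mkx and the Irx genes, 1 was detected in all 3 mice. This was Tgif2, the paralog of Tgif1, with 16.80, 14.03 and 13.66 TPM, or 0.158, 0.147 and 0.184 times the level of Tgif1. Irx1, Irx2, Tgif2lx1 and Tgif2lx2 were listed at 0 in all 3 mice, and the highest of the others was Irx3, with a mean of 0.0503 TPM.

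Proteins known to bind PBX, MEIS or TGIF proteins were widely expressed. All 17 listed genes were detected in all 3 mice, and the median level per mouse, in log2(TPM + 1) units, averaged 5.90 ± 0.06 (SD, n = 3), against 4.19 ± 0.08 over expressed genes. The highest was Ncor1, which encodes a corepressor that works with histone deacetylases, at 304, 299 and 305 TPM. The deacetylase gene Hdac1 had 118, 112 and 122 TPM, and Ctbp1, a corepressor known to bind TGIF proteins, had 125, 97.3 and 107 TPM. Of the 17 genes 9 were highest in mouse 1, against 48.6% of expressed genes, and 4 after upper-quartile scaling, against 34.6%.

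Chromatin factors reported to maintain Meis1 and Hoxa expression were expressed as well. The 8 of 9 listed genes that had a row were all detected, with a median of 5.996 ± 0.048 on the same scale. The listed gene without a row under its symbol was Kmt2a, so its level is not covered. Mllt10 was the highest (135, 138 and 117 TPM), followed by Kat7 (130.4, 115.6 and 101.2 TPM) and Aff1 (87.4, 122 and 104 TPM). Of the 8 genes 5 were highest in mouse 1, against 48.6% of expressed genes, and 2 after upper-quartile scaling, against 34.6%.

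Of 16 genes reported elsewhere as responsive to Meis1 with Hoxa9 in myeloid leukemia, 15 were detected in all 3 mice. Cd34 and Flt3 of these are also among the myeloid markers. The median of the list was 6.03 ± 0.06 on the log2(TPM + 1) scale. Lmo2, a transcription cofactor of blood stem cells, was the highest at 198, 188 and 220 TPM. Cdk6, a cell cycle kinase, had 233, 132 and 143 TPM, and Myb, a progenitor transcription factor, had 193, 124 and 171 TPM. The gene below the threshold in some mice was Trib2, with 0.851, 0.627 and 2.63 TPM. Of the 15 genes 10 were highest in mouse 1, as deposited (48.6% of expressed genes) and after upper-quartile scaling (34.6%). The order of mice of Meis1 was that of 5 of the 15 genes, against 26.0% of expressed genes, and no test was made. Without a group in which Meis1 differs by design, these levels do not bear on whether it regulates them.

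Promoter sequences of 300 bases were given for 6 of the 9 genes, in 10 windows, 5 of them of Tgif1 (RefSeq, GRCm38.p6; reaching from upstream of a start into the transcript). The MEIS motif TGACAG was searched on both strands, with the PBX with HOX motif TGATTGAT and the PBX with MEIS motif TGATTGAC, which do not contain it. TGACAG was in 2 of the 5 Tgif1 windows and in none of the windows of Meis1, Meis2, Meis3, Pbx2 and Pbx4, against 19.2% of all 32851 windows. The other motifs were in none of the 10 windows, against 0.746% and 0.770% of all.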

How the data were processed

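RNA of c-Kit-enriched leukemic spleen cells from 3 mice was sequenced in paired-end reads of 150 nt. The labels' protocols name both ribosomal depletion and an mRNA kit. The authors deposited TPM values per gene symbol, and the submitters' processing notes name kallisto and mm10. The table is named as log2 FPKM, yet its columns hold linear values that sum to 927169 to 929731. The values were therefore treated as TPM, and thresholds planned for FPKM or TPM were kept. The annotation and the use of strand are not given in the sources used here.

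Of 28987 rows, those without a symbol (795) or with a date for one (27) were left out, and 90 symbols on several rows were summed. A further 3 columns of another series were not used. TPM keeps no depth, so no counting interval can be given. Log levels are log2(TPM + 1), and with 1 group no test was made. The planned protein comparison was not run.

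The members and lists were chosen with earlier results of these data known. Named genes are the members, the 3 highest of each list, markers and the 5 genes nearest to Meis1 in pattern; the ratios to Hoxa9, Hoxa7, Kit and Tgif1, the overlapping genes, Irx3, Trib2 and genes listed at 0 were picked after values were seen. Gene positions and 3′ UTRs are from GENCODE M21 (GRCm38, the build of mm10), and all 9 symbols matched. Percentile and site searches were tested on simulated data. Alternatives covered pseudocount, detection limit, scaling, repeated symbols, the window of like level, site length and each mouse left out. Software was pandas 2.3.3 and numpy 2.4.6 in Python 3.11.15, with figures by matplotlib 3.10.9.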

Additional observations from a re-analysis of the deposited data

How the results depend on the processing

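No paired analysis was possible because the labels give 1 group. The number of detected cofactors was 6 at 1 TPM, 7 at 0.1 TPM (with Meis2) and 6 at 5 TPM. It was 6 after upper-quartile scaling and without each mouse in turn. Without a mouse the count could not change, since each gene reached 1 TPM in all 3 mice or in none. With 6 bases in place of 7, the number of cofactors with a seed match rose from 1 to 4, and it was 1 over all protein-coding transcripts. The shares of Meis1 and of the PBX genes and the ratio of Meis1 to Pbx3 moved by less than their spread between mice. This held under each alternative run for them, but for the shares it could not come out otherwise. Leaving out 1 of 3 mice cannot move a mean by its SD. Each cofactor has 1 row, so keeping the highest row changes nothing. Only the pseudocount run of the ratio could have failed, and it gave 2.54 against 2.40 ± 0.29 log2 units. Of 63 recomputed levels, 59 moved by less than their spread between mice. The other 4 (Meis2, Meis3, Pknox2 and Pbx3) moved with the pseudocount of 0.1. Of the 59, 27 left out a mouse and could not have moved by that much, and neither could those that kept the highest row. Of 42 recomputed SDs, 8 moved by over 1.5 times, 6 of them with a mouse left out and 2 with upper-quartile scaling (Pbx2 and Pbx3). Level percentiles fell for all 6 genes when only genes with a mean of at least 5 TPM were counted, to 65.4 for Meis1, because fewer low genes were ranked. The spread percentile of 1 gene, Pbx3, moved beyond its counting interval with the narrower window, to 7.04. No group had enough mice for a test of single outlying samples, and depth is unknown.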
